A study of Homo sapiens with 6 samples.

Results

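miR-375 and miR-7 are small regulatory RNAs of endocrine and secretory cells, and their abundance was examined here in RNA of Caco-2 cells before and after immunoprecipitation with an antibody against N7-methylguanosine (m7G). They were taken by name from the table of mature miRNAs, which gave 3 rows (hsa-miR-375, hsa-miR-7-5p and hsa-miR-7-1-3p) of 2588 listed, and the species prefix is left out from here on. All 3 passed the filter on low counts, as did 800 rows in all. Caco-2 is an established, untreated cell line from a colorectal adenocarcinoma, grown in medium with serum. Total RNA was heat-denatured and sequenced as small RNA libraries either directly (Input, n = 3) or after immunoprecipitation with the anti-m7G antibody (m7G-RIP, n = 3). In the study's protocol the RNA of both groups was decapped first, a step meant to keep the antibody from binding m7G of the cap. How complete the decapping was cannot be read from these counts. The labels number the libraries 1 to 3 in each group but do not state whether these came from separate cultures, so the p-values measure only the spread between these libraries. No library from a control antibody was analysed here, and one cell line without treatment cannot show what changes m7G.

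A miRNA is cut from a hairpin in its primary transcript by DROSHA and then DICER, which leaves a duplex of a 5p and a 3p arm. One arm is usually kept by an Argonaute protein and pairs with target mRNAs through its seed, bases 2 to 8, while the other arm is mostly degraded. miR-375 is abundant in pancreatic islets, where it restrains insulin secretion, and in the gut it is found in enteroendocrine and other secretory cells. miR-7 is likewise abundant in islet cells and in neurons and is known as a repressor of the EGF receptor pathway. m7G itself is a methylated guanosine that METTL1 places inside tRNAs, and the study asked which miRNAs carry it.

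The mature sequences are shown because the comparison of arms and of loci rests on them. They come from RefSeq (GRCh38.p14), are written 5′ to 3′ as RNA, and carry their seed in capitals. All 3 rows were matched. The row for miR-375 names no arm, and its sequence is that of the 3p arm, which RefSeq lists as miR-375-3p. The 3p arm of the second miR-7 hairpin and the RNA antisense to miR-7-5p are added for comparison.
miR-375: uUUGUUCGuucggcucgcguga
miR-7-5p: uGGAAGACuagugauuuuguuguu
miR-7-1-3p: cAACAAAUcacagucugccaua
miR-7-2-3p: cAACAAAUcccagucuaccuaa
miR-3529-3p: aACAACAAaaucacuagucuucca
Among 2370 mature human miRNAs in that table, no other carried the seed UUGUUCG of miR-375 or the seed GGAAGAC of miR-7-5p, and the seed AACAAAU of miR-7-1-3p was shared with 1 other, miR-7-2-3p. The 3p arms of the miR-7 hairpins have the same length of 22 bases and differ at 4 of them, A10C, G17A, A20U and U21A, with miR-7-1-3p given first and positions counted from 1 at its 5′ end. Their reads can therefore be told apart by sequence, whereas a read of miR-7-5p can come from any of 3 hairpins.

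The 3 miR-7 hairpins lie on different chromosomes of GRCh38, the build to which the authors mapped. MIR7-1 is at chr9:83969748-83969857 on the minus strand, inside HNRNPK, which encodes an RNA-binding protein. Of 34 HNRNPK transcripts in GENCODE, 1 has an exon over the hairpin. MIR7-2 is at chr15:88611825-88611934 on the plus strand, and MIR3529 is annotated opposite it at chr15:88611847-88611924. MIR7-3, at chr19:4770670-4770779 and also on the plus strand, is intronic in its long noncoding host gene MIR7-3HG. MIR375 is a single hairpin at chr2:219001645-219001708 on the minus strand that overlaps no other gene, 8223 bases from CRYBA2, a crystallin gene, and 1138 bases from CFAP65, a gene of cilia and flagella. The hairpins that RefSeq lists are printed with the mature arms in capitals, to show that the 24 bases of miR-7-5p are the same in MIR7-2 and MIR7-3 while the rest of the hairpin differs.
MIR375: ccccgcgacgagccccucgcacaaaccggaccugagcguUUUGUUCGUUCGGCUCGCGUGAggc
MIR7-2: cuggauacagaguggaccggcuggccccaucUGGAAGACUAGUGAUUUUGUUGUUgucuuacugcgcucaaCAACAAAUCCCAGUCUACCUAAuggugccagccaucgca
MIR7-3: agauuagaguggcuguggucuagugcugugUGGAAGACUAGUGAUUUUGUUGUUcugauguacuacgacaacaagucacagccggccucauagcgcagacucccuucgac
In MIR7-2 the 5p arm spans bases 32 to 55 of the hairpin and the 3p arm bases 72 to 93.

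Total counts ranged from 16466178 to 19628046 in Input and from 1654102 to 3105129 in m7G-RIP. Levels are given as CPM, a library's counts scaled to a common total after correction for composition with the TMM method. The checks on cell identity used marker miRNAs. All 8 markers of gut epithelium (the miR-200 family with miR-192, miR-194 and miR-215) were measured, at a summed level of 113972 to 121685 CPM in Input. Blood markers summed to 11.1 to 15.9 CPM there, the liver marker miR-122-5p had 0 counts in all libraries, and the neuronal marker miR-124-3p had 0 to 3 counts per Input library. Muscle markers reached 673 to 752 CPM in Input, nearly all from miR-1-3p, endothelial markers 749 to 827 CPM, fibroblast markers 177 to 189 CPM and the 3 neuronal markers together 2856 to 3090 CPM, nearly all from miR-9-5p. In bulk RNA such as this, fewer cells with a miRNA and fewer copies per cell cannot be told apart.

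Before immunoprecipitation the 3 miRNAs covered a wide range, with miR-7-5p far above miR-375 and miR-375 far above miR-7-1-3p. miR-7-5p had 154844, 185308 and 157751 counts in Input replicates 1, 2 and 3, which placed it 12th in each of them. It took 0.944% ± 0.0141 (SD, n = 3) of all Input counts. miR-375 had 2171, 2508 and 2253 counts and ranked between 146 and 152 in these libraries, with a share of 0.0132% ± 0.000466 (SD, n = 3). Within a library miR-7-5p had 70.0 to 73.9 times the counts of miR-375. miR-7-1-3p had 133, 147 and 122 counts and ranked between 338 and 346. Neighbours in this order differed by far more than the replicate spread, since the coefficient of variation of the CPM was 3.43% for miR-375, 4.78% for miR-7-5p and 4.12% for miR-7-1-3p. These are shares of reads from RNAs of 22 to 24 bases.

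The level of miR-7-5p is uncertain by the way reads were counted. The methods let a read map to up to 10 loci in STAR, a limit that need not hold if Bowtie2, which the submitters' notes name, made these counts. The sources used here do not state whether such a read was counted once, at every locus or not at all. The table bears on this in part. For the 3 miRNAs with 4 loci and at least 1 count in every library, 18 of 18 counts were whole multiples of 4. For 39 such miRNAs with 2 loci, 70.5% of the counts were even. For 7 miRNAs with 3 loci, 21 of 42 counts were multiples of 3. Loci were counted from the RefSeq entries used here, which lack the MIR7-1 hairpin and so place miR-7-5p with the miRNAs of 2 loci. miR-7-5p itself was a multiple of 3 in 0 of 6 libraries, so its reads were not all counted once at each of the 3 hairpins. Only a factor that is the same in Input and m7G-RIP would change the level but not the enrichment. Whether it was the same in both groups was not tested.

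The first comparison was between m7G-RIP and Input. miR-375 was higher in m7G-RIP, and both arms of miR-7 were lower after TMM scaling, although miR-7-5p was instead higher when libraries were scaled by total counts or upper-quartile factors. Of the 800 miRNAs tested, 321 (40.1%) were enriched and 305 (38.1%) were depleted by the quasi-likelihood test of edgeR, at a Benjamini-Hochberg adjusted p below 0.05. When libraries were scaled by their totals only, there were 442 enriched and 198 depleted, and upper-quartile factors gave 418 and 227. Calls in either direction were made for 78.2% of the table, so that all 3 of these miRNAs passed the test is close to that background. The median log2 enrichment of all tested miRNAs was 0.16 with TMM, 1.23 with total counts, 0.97 with upper-quartile factors and -0.19 with the size factors of DESeq2, so each member is also given relative to that median.

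miR-375 had 2201, 1966 and 1016 counts in m7G-RIP replicates 1, 2 and 3. Its level was 185, 196 and 197 CPM in Input and 534, 443 and 374 CPM in m7G-RIP. Every m7G-RIP library was above every Input library, as was the case for 41.4% of the tested miRNAs (82.1% had groups that did not overlap in either direction). The log2 enrichment was 1.23 (standard error 0.16, 95% confidence interval 0.88 to 1.57, adjusted p = 1.47e-05, edgeR), a 2.34-fold difference. miR-375 rose under all 4 other scalings and tests, with a log2 enrichment from 0.88 with DESeq2 to 2.31 with total counts. Relative to the median of all tested miRNAs it stood 1.07 higher on the log2 scale with TMM, and 0.86 to 1.20 higher in the fits without 1 library, each against the median of the miRNAs tested in that fit. It ranked above 64.8% of the tested miRNAs, with 281 more strongly enriched, and its place by abundance moved from 146 to 152 in Input to 79 to 88 in m7G-RIP.

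miR-7-5p had 51500, 44551 and 24988 counts in m7G-RIP. After TMM scaling its level was 13201, 14517 and 13765 CPM in Input and 12502, 10032 and 9206 CPM in m7G-RIP. The groups did not overlap, with every m7G-RIP library lower, a pattern shared by 40.8% of the tested miRNAs. The gap between the lowest Input and the highest m7G-RIP library was smaller than the SD of the m7G-RIP libraries, 1715 CPM. The log2 enrichment was -0.39 (standard error 0.15, 95% confidence interval -0.70 to -0.07, adjusted p = 0.0277, edgeR), but it was 0.70 with total counts (adjusted p = 9.34e-05, edgeR) and 0.44 with upper-quartile factors (adjusted p = 0.0421, edgeR). The share of all counts rose from 0.944% ± 0.0141 (SD, n = 3) to 1.54% ± 0.119 (SD, n = 3), and without the correction for composition every m7G-RIP library lay above every Input library. The size factors of DESeq2 gave -0.74 (adjusted p = 0.000254, edgeR). With TMM the call was lost without Input replicate 1 (-0.41, adjusted p = 0.0711, edgeR), without Input replicate 2 (-0.34, adjusted p = 0.116, edgeR) and without Input replicate 3 (-0.32, adjusted p = 0.164, edgeR). Whether miR-7-5p was enriched or depleted thus depended on the scaling. A scaling shifts all miRNAs by about the same amount, so the distance from the median of all tested miRNAs is nearly fixed across scalings by construction. It was -0.55 with TMM and ranged from -0.77 to -0.44 over the fits without 1 library. Its rank among all miRNAs changed little, from 12 in Input to 14 or 15 in m7G-RIP.

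miR-7-1-3p had 37, 11 and 10 counts in m7G-RIP replicates 1, 2 and 3. Its level was 11.3, 11.5 and 10.6 CPM in Input and 8.98, 2.48 and 3.68 CPM in m7G-RIP. The groups did not overlap on this scale, with every m7G-RIP library lower, as was the case for 40.8% of the tested miRNAs. However, m7G-RIP replicate 1 stood well above replicates 2 and 3. The 95% counting interval (exact Poisson) of that library, 6.32 to 12.4 CPM, reached all 3 Input levels, while that of replicate 2 ran from 1.24 to 4.43 CPM and that of replicate 3 from 1.77 to 6.78 CPM. Such intervals cover counting error only, since reads without molecular identifiers are not independent molecules. The log2 enrichment was -1.13 (standard error 0.42, 95% confidence interval -2.03 to -0.23, adjusted p = 0.0245, edgeR). It was -1.94 without m7G-RIP replicate 1 (adjusted p = 0.000193, edgeR) and -0.91 without m7G-RIP replicate 2 (adjusted p = 0.0519, edgeR). The call was also lost without Input replicate 1, 2 or 3 (-1.11, -1.09 and -1.10, adjusted p 0.0680, 0.0826 and 0.0712, edgeR). With total counts it was -0.068 (adjusted p = 0.887, edgeR), and the share of all counts was 0.000763% ± 3.13e-05 (SD, n = 3) in Input against 0.000719% ± 0.000433 (SD, n = 3) in m7G-RIP. Relative to the median of all tested miRNAs it stood at -1.29 with TMM, and ranged from -1.93 to -0.91 over the fits without 1 library.

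**Figure D1:**
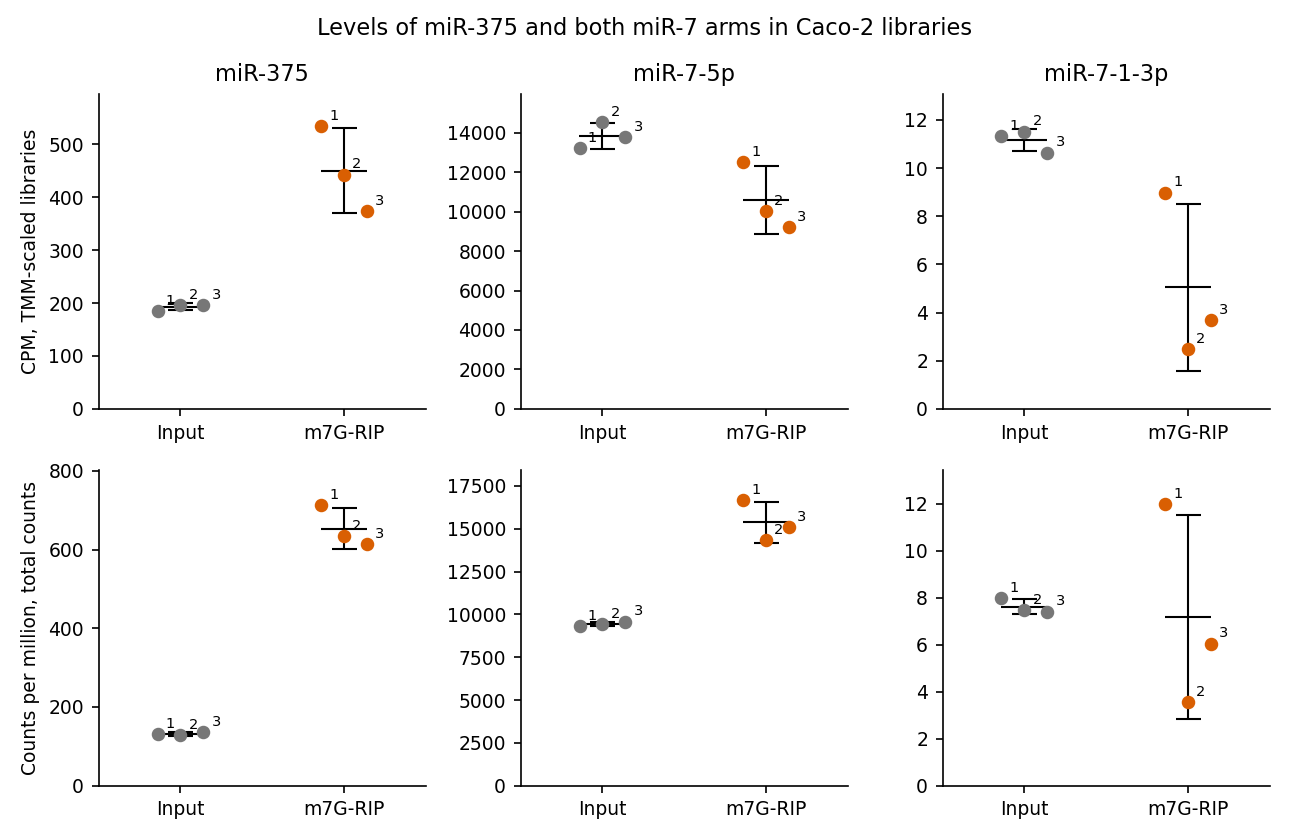
Levels of miR-375, miR-7-5p and miR-7-1-3p in each library, as CPM of TMM-scaled libraries (top row) and as CPM of the uncorrected totals (bottom row), with Input in grey and m7G-RIP in orange. Points are libraries labelled by replicate number, and bars are the mean and SD (n = 3). miR-375 is higher in m7G-RIP on both scales, while miR-7-5p is lower in the top row and higher in the bottom row.

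**Figure D2:**
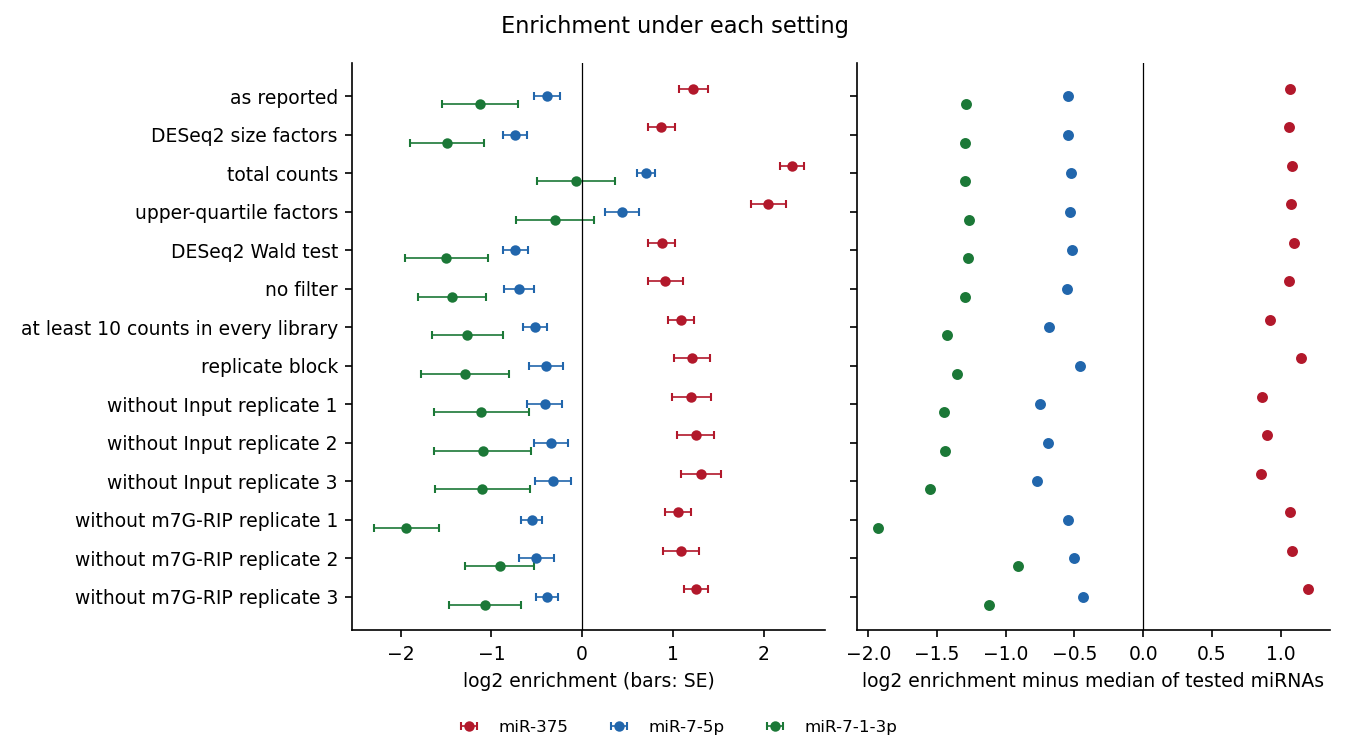
Log2 enrichment of the 3 miRNAs as reported and under each alternative setting (left, bars are the standard error), and the same value minus the median of the tested miRNAs (right). On the left miR-7-5p changes sign under total-count and upper-quartile scaling, and on the right miR-375 stays above 0 and both arms of miR-7 stay below 0 in every row.

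The zero of the enrichment scale drops out when 2 miRNAs are compared within one library, so the ratio of their counts was compared between the groups. miR-375 gained on miR-7-5p in every m7G-RIP library. The log2 ratio of miR-375 to miR-7-5p counts (with 0.5 added to each count) was -6.16, -6.21 and -6.13 in Input replicates 1, 2 and 3 and -4.55, -4.50 and -4.62 in m7G-RIP replicates 1, 2 and 3. The groups were far apart compared with their SDs of 0.04 and 0.06. The mean difference was 1.61, a 3.05-fold shift toward miR-375, and 3 of 3 m7G-RIP libraries lay above all 3 Input libraries (exact permutation test, two-sided, p = 0.1, the smallest value that 3 against 3 libraries allow). That separation already follows from the TMM levels, in which miR-375 was higher and miR-7-5p lower in every m7G-RIP library. Groups did not overlap for 82.1% of single tested miRNAs, and how often a ratio of 2 miRNAs separates them was not counted. In linear terms miR-7-5p had 22.7 to 24.6 times the counts of miR-375 in m7G-RIP. These ratios use counts as deposited, so a constant factor in the counting of miR-7-5p leaves their difference between the groups as it is. Whether that factor was constant was not tested.

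The arms of miR-7 were compared in the same way. The 5p arm dominated in all libraries, and the excess was larger in m7G-RIP, but unevenly so. miR-7-5p had 1164, 1261 and 1293 times the counts of miR-7-1-3p in Input replicates 1, 2 and 3. In m7G-RIP replicates 1, 2 and 3 it had 1392, 4050 and 2499 times the counts. m7G-RIP replicate 1 was above the Input libraries but close to them, and replicates 2 and 3 were further above. The mean log2 ratio was 10.27 ± 0.08 (SD, n = 3) in Input and 11.19 ± 0.75 (SD, n = 3) in m7G-RIP, a difference of 0.92 (exact permutation test, two-sided, p = 0.1, again the smallest possible). Without m7G-RIP replicate 2 the difference was 0.55, and without replicate 1 it was 1.30. The m7G-RIP ratios rest on 10 to 37 counts of the 3p arm. The arms also differ in source, because reads of miR-7-5p can come from any of 3 hairpins and those of miR-7-1-3p from MIR7-1 alone.

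**Figure D3:**
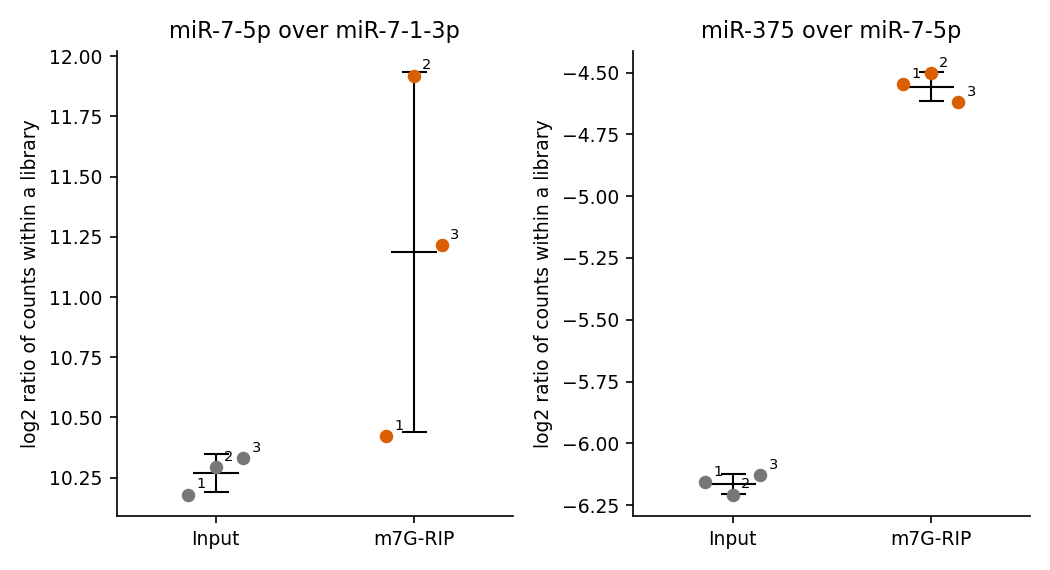
Log2 ratio of counts within each library for miR-7-5p over miR-7-1-3p (left) and miR-375 over miR-7-5p (right), on axes that do not start at 0. Points are libraries labelled by replicate number, and bars are the mean and SD (n = 3). On the right the m7G-RIP libraries form a tight group 1.61 above Input, and on the left they spread from 10.42 to 11.92.

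No reads were counted for the 3p arm of the second hairpin. miR-7-2-3p had 0 counts in all 6 libraries, as did miR-3529-3p and miR-3529-5p from the opposite strand of the same locus. The limit taken for a count of 0 was 3 counts, close to the one-sided 95% Poisson limit and below the two-sided intervals given for miR-7-1-3p, which is 0.235 to 0.262 CPM in Input and 0.676 to 1.11 CPM in m7G-RIP. The sequence of miR-3529-3p is the exact reverse complement of miR-7-5p over its 24 bases, and the libraries were stranded. How much of miR-7-5p came from MIR7-2 or MIR7-3 cannot be read from these rows, since its mature sequence is the same in both and the level of a 3p arm is no measure of its partner.

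Across 195 hairpins with both arms tested, the log2 enrichment of the 5p arm minus that of the 3p arm had a median of 0.89, with quartiles of -0.78 and 2.84. For miR-7-5p and miR-7-1-3p this difference was 0.74, near the middle of the hairpins. The imbalance of its arms in Input was not near the middle. Among 174 hairpins with more than 3 counts of each arm in every Input library, 2 had a larger ratio between the arms than miR-7, and the median ratio was 9.57-fold. The multiple loci of miR-7-5p enter this ratio.

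The miRNAs with the most similar values were found by the Euclidean distance of log2 CPM over the 6 libraries, which takes in both level and enrichment. A similar enrichment of such neighbours follows in part from this choice and is no separate result. Closest to miR-375 were let-7d-5p (distance 0.72), miR-193a-5p (0.81) and let-7c-5p (0.83). Their log2 enrichments were 1.00, 1.71 and 1.33 in that order. let-7 miRNAs are repressors of growth genes with near-identical sequences, so a read may count toward several of them. Closest to miR-7-5p was let-7g-5p (distance 0.81), with 10655 ± 1935 CPM (SD, n = 3) in Input against 9613 ± 1772 CPM (SD, n = 3) after immunoprecipitation. The difference of -0.15 on the log2 scale did not pass the test with TMM (adjusted p = 0.439, edgeR). let-7g-5p was called depleted with the size factors of DESeq2 (-0.50, adjusted p = 0.0158, edgeR). It was called enriched with total counts (0.94, adjusted p = 6.89e-05, edgeR) and upper-quartile factors (0.67, adjusted p = 0.00907, edgeR). The next, miR-200b-3p of the epithelial miR-200 family (distance 1.54) and miR-941 (distance 1.63), moved in opposite directions with log2 enrichments of -1.41 and 0.76, so beyond let-7g-5p the neighbours of miR-7-5p matched it in level rather than in enrichment. Closest to miR-7-1-3p were miR-182-3p (distance 0.73), miR-3940-3p (0.84) and miR-26b-3p (1.10), of which miR-3940-3p passed the test with a log2 enrichment of -0.97 (adjusted p = 0.0196, edgeR) that turned to 0.10 with total counts.

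**Figure D4:**
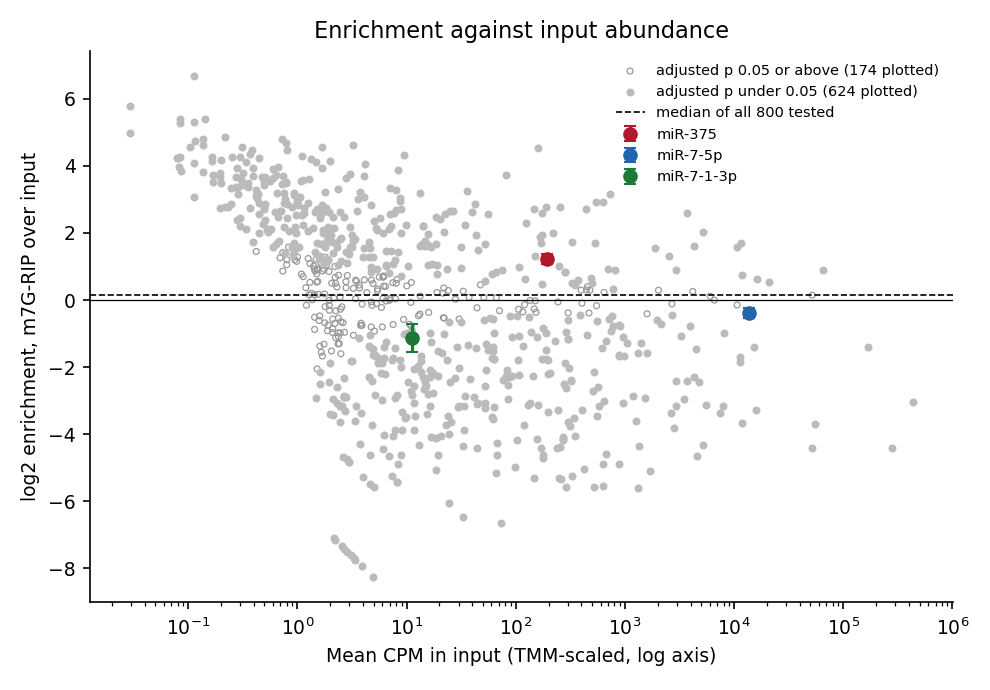
Enrichment in m7G-RIP (log2, relative to Input) against the mean CPM in Input on a log axis, for 798 of the 800 tested miRNAs (2 had 0 counts in Input). Filled grey points passed an adjusted p of 0.05, open points did not, coloured points are the 3 miRNAs with their standard errors, and the dashed line is the median of all tested at 0.16. miR-375 lies above that line, and miR-7-5p, among the most abundant, and miR-7-1-3p lie below it.

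miR-375 and miR-7 were also set beside 15 other miRNAs known from islet, endocrine or neuronal cells. Of these, 8 passed the filter on low counts, 1 of them was enriched, 6 were depleted and 1 was not called, where 40.1% of all tested miRNAs were enriched and 38.1% depleted. Their median log2 enrichment was -1.77, against 0.16 for all tested miRNAs. With total counts 2 were enriched and 3 depleted, so the counts by direction depend on the scaling as well. The member most abundant in Input was miR-9-5p, a regulator of neural progenitors, which fell from 2923 to 330 CPM (means, n = 3) with a log2 enrichment of -3.15. Its partner arm miR-9-3p fell by 2.38 on the log2 scale. miR-335-5p fell by 2.17 and miR-132-3p, a miRNA induced by neuronal activity, by 0.49 (adjusted p = 0.0271, edgeR), and miR-132-3p was instead called enriched with total counts. The one enriched miRNA was miR-184, which is abundant in eye and islet, at 7.13 CPM in Input and 73.0 CPM in m7G-RIP with a log2 enrichment of 3.35 (adjusted p = 1.33e-07, edgeR) and enriched under every scaling run. In the gut epithelial markers 7 of 8 were depleted and 1, miR-200c-3p, was enriched, though not with the size factors of DESeq2, beside the same 38.1% depleted and 40.1% enriched over all tested miRNAs. miR-375 had a mean of 193 ± 6.61 CPM (SD, n = 3) in Input beside 320 CPM for miR-9-3p and 208 CPM for miR-335-5p. In m7G-RIP it had 450 ± 80.3 CPM (SD, n = 3) beside 60.9 and 46.0 CPM. Both of those miRNAs were depleted, whereas miR-184 of the same list rose more strongly than miR-375. Outside the list, let-7d-5p, near miR-375 in level, went from 251 to 503 CPM (means, n = 3).

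The antibody recognises a methylated guanosine, so the number of guanosines in the mature sequences was counted for the 715 tested miRNAs (89.4%) that have a RefSeq sequence. miR-375 and miR-7-5p both hold 7 guanosines, which is 31.8% and 29.2% of their bases against a median of 27.3%. miR-7-1-3p holds 2, or 9.09% of its bases. Among the 78 miRNAs with 7 guanosines, the 2 members included, the median log2 enrichment was -0.79 with quartiles of -2.82 and 0.62. miR-375 lay above the upper quartile and miR-7-5p between the quartiles. Among the 44 miRNAs with 2 guanosines the median was 0.77 with quartiles of -0.44 and 1.65, and miR-7-1-3p at -1.13 lay below the lower one. With the same number of guanosines, miR-375 and miR-7-5p differed by 1.61 on the log2 scale, as the ratio within libraries shows without any scaling. These are descriptions across miRNAs that share libraries, and no test was applied.

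**Figure D5:**
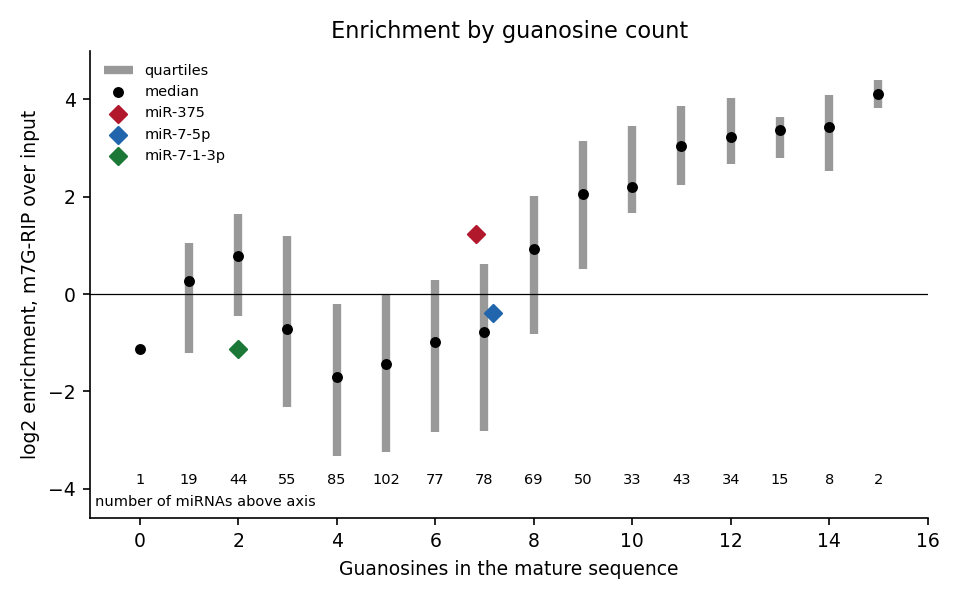
Enrichment in m7G-RIP (log2, relative to Input) by the number of guanosines in the mature sequence, for 715 tested miRNAs. Black points are medians, grey bars run from the lower to the upper quartile, diamonds are the 3 miRNAs, and the number of miRNAs per column stands along the bottom. miR-375 and miR-7-5p share the column of 7 guanosines and lie on either side of 0 with TMM, while with total counts both are above 0.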

How the data were processed

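Small RNA libraries of Caco-2 cells (3 Input, 3 m7G-RIP) were made with the NEBNext kit as stranded 50-base single-end libraries. The authors trimmed adaptors with Trimmomatic, mapped reads to GRCh38 and counted them on mature miRNAs of miRBase with featureCounts. The methods name STAR as the aligner, whereas the submitters' processing notes name Bowtie2, and versions are not given in the sources used here. The deposited values are raw counts per miRNA and library, without normalization or pooling.

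From these counts, log2 enrichment was fitted over the whole table with edgeR 4.0.16 in R 4.3.3 (filterByExpr with a minimum count of 10 and a minimum total of 15, TMM factors, quasi-likelihood test, Benjamini-Hochberg adjustment, threshold 0.05), without the replicate number. The standard error is the absolute log2 enrichment divided by the square root of F. Alternatives were other scalings, DESeq2 1.42.0, other filters, the replicate block and leaving out each library. Ratios within libraries were compared by exact permutation tests in scipy 1.17.1. The fit was tested on simulated data in which most miRNAs were unchanged, raised and lowered ones were balanced, and all had the same spread. Of 96 miRNAs changed by 2 on the log2 scale 93 were recovered, and of 99 changed by 1, 57 were (773 miRNAs simulated). Of 158 calls 5.06% were false. No shift in composition was simulated, so the recovery does not bear on the choice of scaling, on which the direction of miR-7-5p depended. The lower m7G-RIP totals limit the precision of rare miRNAs, and no library was a copy of another of its group (their counts differed beyond counting noise, with a chi-square of 17.5 to 105 for each degree of freedom).

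The miRNAs and lists were chosen with earlier results of these data known. Those named are the 3 members, other rows of their loci, the 3 nearest of each, miRNAs sharing a seed, and of the 15 endocrine and neuronal miRNAs the 4 highest in Input. miR-122-5p and miR-124-3p were named as defining markers of liver and neurons. miR-184 and miR-200c-3p, the only enriched ones of their lists, and miR-1-3p, which made up most of the muscle sum, were named after their values were seen. Annotation is GENCODE release 44, and sequences are RefSeq's (GRCh38.p14).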

Additional observations from a re-analysis of the deposited data

How the results depend on the processing

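The enrichment of miR-375 passed the threshold under all 13 alternatives (1.05 to 1.31 with each library left out, 1.21 with the replicate block). That of miR-7-5p, -0.39 as reported, turned to 0.70 with total counts and to 0.44 under upper-quartile scaling. It missed the threshold without each of the Input libraries (-0.56 to -0.32 with each library left out, adjusted p 0.000747 to 0.164) and with the replicate block (-0.40, adjusted p = 0.0588, edgeR). That of miR-7-1-3p, -1.13 as reported, missed it with total counts (-0.068), under upper-quartile scaling (-0.29) and without any one Input library or m7G-RIP replicate 2 (-1.94 to -0.91 with each library left out, adjusted p 0.000193 to 0.0826), and was -1.29 with the replicate block. The median over all miRNAs of the change from TMM was 1.09 with total counts and 0.82 under upper-quartile scaling, which raises each value. For the left-out libraries and the block the cause was not tested. The number of enriched miRNAs, 321, fell to 182 when every library had to hold at least 10 counts (426 tested), ranged from 268 to 341 over the libraries left out, and was 296 under the replicate block. The number depleted, 305, fell to 198 with total counts and to 175 under that stricter filter, ranged from 235 to 377 over the libraries left out, and was 295 under the replicate block. The ratios within libraries kept their direction under all 9 alternatives each: 0.55 to 1.30 for the arms of miR-7 and 1.58 to 1.64 for miR-375 over miR-7-5p over the libraries left out, and 0.92 and 1.61 under the replicate block. The study's protocol saves each input from the RNA that goes into immunoprecipitation. Same-numbered libraries may therefore be paired, which the labels do not state. Correlations of their deviations from the group means were -0.014, -0.028 and 0.060, and 1 of 3 pairs correlated best with its own number. With 3 libraries per group these values cannot decide whether the libraries were paired. The depth of m7G-RIP limits miR-7-1-3p, at 10 to 37 counts.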
